A study of Homo sapiens with 6 samples.

Results

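The genes of the laminins and the integrins were followed in UMUC3 cells, an established human bladder cancer line. They were chosen by name, 34 of the 60605 genes in the count table, and comprised 10 laminin genes (5 alpha, 3 beta and 2 gamma chains) and 24 integrin genes (16 alpha and 8 beta subunits). RNA sequencing was carried out on 3 libraries of cells infected with TIM-1 in the vector PLVX-IRES-zsgreen and on 3 libraries of cells infected with PLVX-IRES-Zsgreen without TIM-1, numbered 1 to 3 in both groups. TIM-1, the product of HAVCR1, sits on the cell surface and binds phosphatidylserine. Both groups therefore carried a vector with the green fluorescent marker ZsGreen. The labels name neither the promoter that drives TIM-1 nor whether the infected cells were pooled or cloned, nor if each library had its own culture. The p-values therefore reflect how far these libraries spread, and that spread may be technical.

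Laminins are secreted proteins made of an alpha, a beta and a gamma chain that join inside the cell. They form the sheet of the basement membrane on which epithelia, the urothelium among them, rest. Integrins are surface receptors made of an alpha and a beta subunit, and a subunit reaches the surface only in a pair. The alpha subunit largely sets which matrix protein is bound: ITGA3, ITGA6 and ITGA7 pair into laminin receptors, ITGA1, ITGA2, ITGA10 and ITGA11 into collagen receptors, and ITGA5, ITGA8 and ITGAV into receptors for the RGD sequence of fibronectin and vitronectin.

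Total counts per library ran from 14312387 to 18605914. For HAVCR1, TIM-1 replicates 1, 2 and 3 held 7069, 9824 and 11479 counts, against 4, 0 and 0 for empty-vector replicates 1, 2 and 3. Of the markers of other cell types, the leukocyte genes PTPRC, CD3E, CD68 and LYZ and the endothelial genes CDH5 and KDR had 0 counts in every library. Of the 4 fibroblast markers, DCN had 0 counts and LUM 1 count in all, PDGFRB had 29 to 43 counts per library, and COL1A1 had 117 to 191 counts with TIM-1 and 65 to 117 with the empty vector. Of the epithelial and urothelial markers, EPCAM, UPK3A and KRT20 had 0 counts throughout and CDH1 had 2 counts in all, whereas KRT18 had 3938 to 8467 and KRT8 685 to 796 counts per library. Some markers moved with TIM-1 in the test paired by replicate number: PPARG had 109, 134 and 156 counts in the TIM-1 libraries, against 70, 92 and 94 in the empty-vector libraries (log2 fold change 0.62, edgeR adjusted p = 0.0185). GATA3 had 12, 15 and 12 counts with TIM-1, against 18, 38 and 38 with the empty vector (-1.25, edgeR adjusted p = 0.0457), and KRT18 was lower with TIM-1 (-0.24, edgeR adjusted p = 0.00946). In the unpaired edgeR test PPARG, GATA3 and KRT18 were not called (adjusted p = 0.644, 0.676 and 0.917), and the KRT18 groups overlapped. The part of these markers in the results below was not tested. The mesenchymal gene VIM had between 20479 and 35160 counts per library. The other mesenchymal markers were lower, with 2088 to 2639 counts for ZEB1, 433 to 589 for CDH2 and 177 to 255 for FN1. Replicate 1 differed from replicates 2 and 3, with 11.6% of all tested genes higher and 12% lower in it (edgeR quasi-likelihood test, adjusted p below 0.05, group as a term).

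Levels between genes were compared as reads per kilobase of exon scaled to library size (RPKM), and levels of 1 gene between libraries as counts scaled to library size (CPM). A chain was taken as present where it reached 1 RPKM in all 6 libraries. By that limit 16 of the 34 genes were present, 6 laminin and 10 integrin genes. The same 16 were present in the TIM-1 libraries taken alone and in the empty-vector libraries taken alone, so neither group had a chain by this limit that the other lacked. In bulk RNA, fewer cells making a transcript and less of it per cell cannot be told apart. With 0.5 RPKM in place of 1 the count was 17, with ITGB3 added, and with 2 RPKM it was 13, without ITGA2, ITGA4 and ITGB2. Transcripts, not proteins, were measured, and a complex is described below as possible only in the sense that transcripts of all its chains were present.

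**Figure D1:**
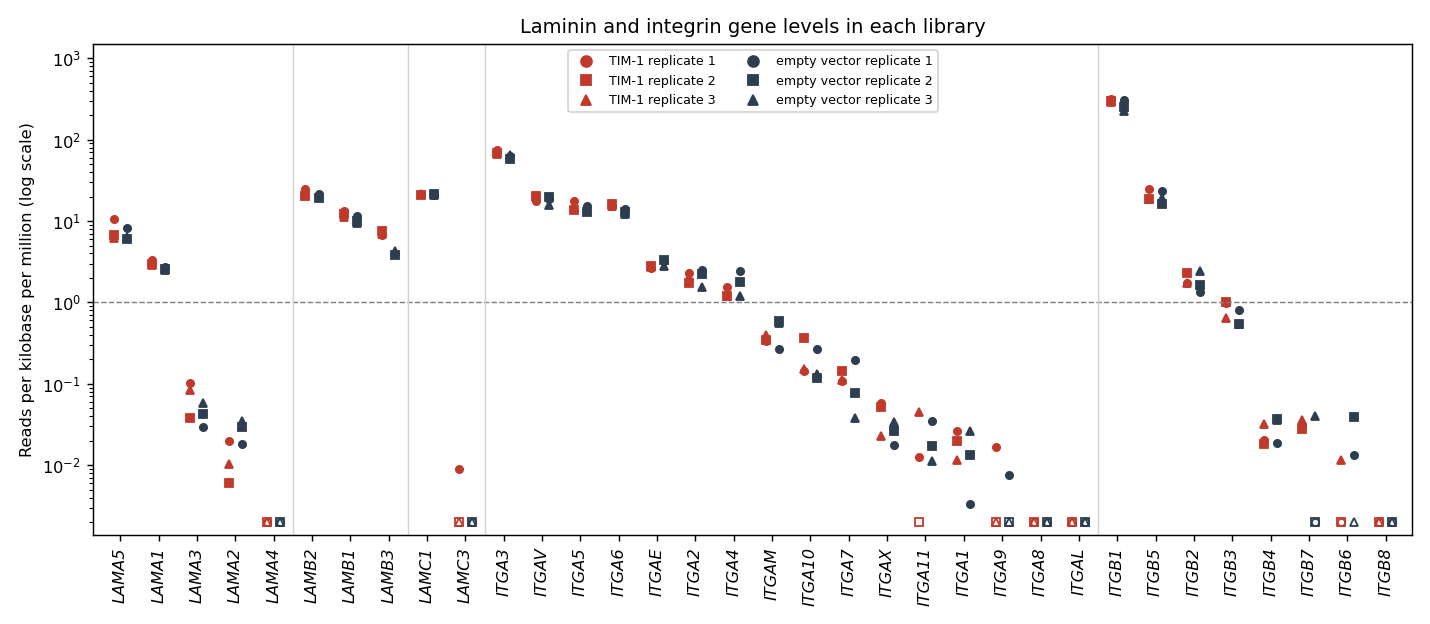
Level of the 34 genes in each library, as RPKM on a log axis, ordered by level within laminin alpha, beta and gamma chains and integrin alpha and beta subunits. Red symbols are TIM-1 libraries and dark symbols empty-vector libraries, the shape gives the replicate, open symbols at the foot stand for a count of 0, and the dashed line marks 1; ITGB1 lay above all others, between 225 and 321 RPKM.

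Among the laminin alpha chains, LAMA5 and LAMA1 were present and LAMA2, LAMA3 and LAMA4 were at or near 0. LAMA5, the alpha chain of most adult epithelial basement membranes, stood at 7.86 ± 2.39 RPKM with TIM-1 and 6.89 ± 1.18 RPKM with the empty vector (SD, n = 3 each). LAMA1, the alpha chain of the first embryonic basement membranes, stood at 3.03 ± 0.221 RPKM with TIM-1 and 2.61 ± 0.125 RPKM with the empty vector. LAMA5 exceeded LAMA1 per length by a ratio of 2.17 to 3.23 over the 6 libraries, and made up 67.8% to 75.7% of the reads per kilobase of the alpha chains. LAMA3, the alpha chain of the anchoring laminin of skin and urothelium, had 22, 9 and 23 counts in the TIM-1 libraries and 7, 10 and 14 in the empty-vector libraries, a mean over all 6 of 0.0592 RPKM. LAMA2, the alpha chain of muscle and peripheral nerve, had 20 counts over the 6 libraries. LAMA4, the alpha chain of vessel walls, had 0 counts in each library, which allows at most 0.0178 RPKM in the shallowest of them (3 counts, counting error only).

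All 3 beta chains were present, and of the gamma chains LAMC1 was present and LAMC3 was not. LAMB2, the beta chain of neuromuscular, kidney and vascular basement membranes, stood at 22.2 ± 2.24 RPKM with TIM-1 and 20.5 ± 0.974 RPKM with the empty vector (SD, n = 3 each). LAMB1, the beta chain of the widespread laminins, stood at 12.2 ± 1.13 RPKM with TIM-1 and 10.3 ± 1.14 RPKM with the empty vector. LAMB3, the beta chain of the anchoring laminin of stratified epithelia, stood at 7.10 ± 0.412 RPKM with TIM-1 and 4.03 ± 0.263 RPKM with the empty vector. LAMC1, the gamma chain shared by most laminins, was the steadiest of the laminin genes that were present, between 20.7 and 21.7 RPKM over all 6 libraries. LAMC3 had 1 count in all.

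The chains present are those of 4 of 14 known laminin trimers. These were laminin-111 (LAMA1, LAMB1, LAMC1), laminin-121 (LAMA1, LAMB2, LAMC1), laminin-511 (LAMA5, LAMB1, LAMC1) and laminin-521 (LAMA5, LAMB2, LAMC1). The lowest chain of each was the alpha chain, at a mean over the 6 libraries of 2.82 RPKM for LAMA1 and 7.37 RPKM for LAMA5, and the 4 trimers were the same at limits of 0.5 and 2 RPKM. LAMB3 is known to join in trimers with LAMA3. Its level per length exceeded that of LAMA3 by a ratio of 65.2 to 199 over the libraries. This ratio is imprecise, since it rests on 7 to 23 LAMA3 counts per library, and LAMA3 lay far under the limit in both groups.

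LAMB3 was the member that differed most clearly between the groups. The gene (ENSG00000196878) occupies chromosome 1, positions 209614870 to 209652466, minus strand, GRCh38, and 0.128% of its exonic bases overlap a microRNA gene. TIM-1 replicates 1, 2 and 3 had 458, 572 and 609 LAMB3 counts, against 293, 292 and 337 in empty-vector replicates 1, 2 and 3. Scaled to library size it stood at 31.6, 35.4 and 32.9 CPM with TIM-1, against 18.4, 18.1 and 20.3 CPM with the empty vector. Every TIM-1 library was above every empty-vector library, the lowest TIM-1 library being replicate 1 and the highest empty-vector library replicate 3. The log2 ratio within same-numbered libraries was 0.78, 0.97 and 0.69.

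Without pairing, LAMB3 was 1.77-fold higher with TIM-1 but did not pass the threshold of 0.05 (log2 fold change 0.82, SE 0.11, edgeR quasi-likelihood adjusted p = 0.0892). With the replicate number as a block it rose, with a log2 fold change of 0.81 (SE 0.10; adjusted p = 8.31e-08, edgeR). DESeq2 called it with and without the block (adjusted p = 1.20e-06 and 5.95e-06). Without the replicate 1, 2 or 3 pair the blocked log2 fold change was 0.83, 0.74 and 0.88, with an edgeR adjusted p of at most 7.79e-05. LAMB3 did not move with replicate 1, whose libraries differed from replicates 2 and 3 by -0.09 (edgeR adjusted p = 0.581).

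The share of LAMB3 among the beta chains was higher with TIM-1. It made up 15.1%, 18.9% and 17.7% of their reads per kilobase in TIM-1 replicates 1, 2 and 3, against 10.6%, 11.6% and 12.6% in empty-vector replicates 1, 2 and 3. The groups did not overlap. LAMB2 made up 55.1%, 50.8% and 54.2% with TIM-1, against 58.0%, 58.4% and 60.3% with the empty vector, again without overlap. The shares of the beta chains sum to the whole, so the LAMB2 share is not independent of the LAMB3 share. The LAMB2 level itself lay slightly higher with TIM-1, without a call (blocked log2 fold change 0.11, edgeR adjusted p = 0.389). The share of LAMB1 was 29.4% ± 1.2 with TIM-1 and 29.5% ± 2.17 with the empty vector (SD, n = 3 each), and the alpha chain shares overlapped for LAMA5, LAMA1 and LAMA3. Those of LAMA2 did not overlap, at 0.0618% to 0.143% with TIM-1 and 0.164% to 0.39% with the empty vector. They rest on 1 to 6 LAMA2 counts per library. With 3 libraries against 3, a two-sided exact permutation test of a share cannot reach p = 0.05, so these shares are given without a test.

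**Figure D2:**
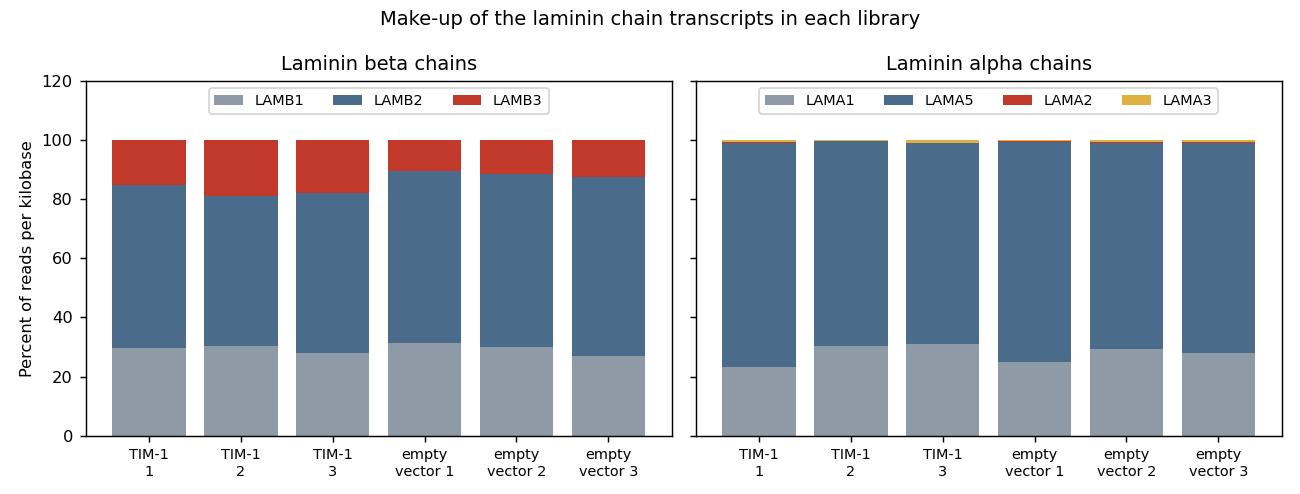
Share of each chain in the reads per kilobase of the laminin beta chains (left) and alpha chains (right), in percent, for the 3 TIM-1 and the 3 empty-vector libraries. The LAMB3 part is wider in each TIM-1 library, 15.1% to 18.9% against 10.6% to 12.6%, while LAMA5 and LAMA1 make up nearly all of the alpha chains in every library.

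RefSeq gives LAMB3 3 start sites on GRCh38.p14, and the promoter window of the third, from 250 bases before to 50 after the start, holds a match to the AP-1 motif. That window and the one of its trimer partner LAMA3, which the line barely expressed, are shown. Both carry the motif, searched as TGANTCA on both strands and marked in capitals. The ITGA5 window also carries it and is not shown. The LAMB3 window lies at chr1:209651325-209651624 on the minus strand and the LAMA3 window at chr18:23872770-23873069 on the plus strand.
LAMB3: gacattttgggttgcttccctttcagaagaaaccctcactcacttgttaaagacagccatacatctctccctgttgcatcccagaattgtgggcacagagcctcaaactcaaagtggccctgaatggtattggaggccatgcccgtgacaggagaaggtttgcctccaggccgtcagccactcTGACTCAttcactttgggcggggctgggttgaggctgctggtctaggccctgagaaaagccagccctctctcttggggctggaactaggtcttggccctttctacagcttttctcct
LAMA3: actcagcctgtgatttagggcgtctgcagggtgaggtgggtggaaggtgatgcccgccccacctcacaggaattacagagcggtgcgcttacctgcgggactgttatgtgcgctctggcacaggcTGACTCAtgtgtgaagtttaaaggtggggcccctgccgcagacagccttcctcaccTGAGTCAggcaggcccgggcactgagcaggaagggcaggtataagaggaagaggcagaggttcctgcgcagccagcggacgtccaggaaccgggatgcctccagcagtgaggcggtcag
The motif occurs 1 time in the LAMB3 window and 2 times in the LAMA3 window, with no overlap between matches. Promoter windows were found for 24 of the 34 genes, 31 windows in all, and 3 of them (9.68%) held the motif, with ITGA5 the other gene, against 7.71% of all 35116 windows. The motif was thus about as frequent among these genes as elsewhere, and the counts do not say which start site was used.

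Of the other laminin genes, LAMB1 rose with TIM-1 in the paired test and LAMA1 lay higher without a call. LAMB1 stood at 109, 98.8 and 90.1 CPM in TIM-1 replicates 1, 2 and 3, against 94.1, 81.3 and 76.1 CPM in empty-vector replicates 1, 2 and 3. In each pair the TIM-1 library was the higher, but the groups overlapped. LAMB1 had a blocked log2 fold change of 0.24 (SE 0.07; adjusted p = 0.0231, edgeR), against an unpaired adjusted p of 0.891. Leaving out the replicate 2 pair lost the call (edgeR adjusted p = 0.373), as did DESeq2 with the block (adjusted p = 0.153), and LAMB1 was also higher in replicate 1, by 0.23 (edgeR adjusted p = 0.0239).

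LAMA1 stood at 52.2, 46.5 and 45.8 CPM with TIM-1, against 43.7, 40.6 and 39.9 CPM with the empty vector, with no overlap. An antisense gene shares 10.3% of its exonic bases. Its blocked log2 fold change of 0.22 did not pass (SE 0.08, edgeR adjusted p = 0.118). LAMA5 stood at 152, 95.7 and 89.6 CPM with TIM-1, against 118, 87.0 and 90.7 CPM with the empty vector. In both groups replicate 1 was the high library, with a log2 difference of 0.56 (adjusted p = 5.71e-06, edgeR), and the TIM-1 difference of 0.16 was not called (edgeR adjusted p = 0.183 with the block), although it passed when the replicate 3 pair was left out (0.26, edgeR adjusted p = 0.0267). LAMB2 and LAMC1, with blocked log2 fold changes of 0.11 and 0.03, were not called either. LAMA3, at low counts, had a blocked log2 fold change of 0.75 with an SE of 0.46 (edgeR adjusted p = 0.404).

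Among the integrins, ITGB1 was the most abundant of the 34 genes per length. It encodes the beta subunit shared by most matrix receptors and stood at 303 ± 17.02 RPKM with TIM-1 and 263 ± 42.5 RPKM with the empty vector (SD, n = 3 each). ITGA3, the alpha subunit of a laminin receptor with high affinity for laminin-511 and laminin-521, came next at 70.3 ± 4.57 RPKM with TIM-1 and 61.4 ± 3.46 RPKM with the empty vector. No library of ITGA3 reached the lowest of ITGB1, and ITGB1 exceeded it by a ratio of 3.50 to 4.95. From ITGA3 the order went to LAMB2, LAMC1, ITGB5, ITGAV, ITGA5, ITGA6, LAMB1, LAMA5 and LAMB3, with means over the 6 libraries of 21.3 to 5.57 RPKM, and each overlapped the next in this order over the libraries. LAMB3 lay above ITGAE, at 2.92 RPKM, without overlap.

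The 12 alpha subunits known to pair with ITGB1 together reached 37.4% to 48.4% of the ITGB1 level per length. ITGA3 supplied 53.7% to 59.0% of that sum. ITGA6, the alpha subunit of the other laminin receptor present, supplied 11.1% to 13.3%. ITGA5, the alpha subunit of the main fibronectin receptor, supplied 11.4% to 13.5%. ITGAV, which pairs with several beta subunits, supplied 13.4% to 18.3%. ITGA2, of a collagen receptor that also binds laminin, and ITGA4, of a receptor for fibronectin and VCAM-1, supplied 1.41% to 2.18% and 0.991% to 2.09%. The collagen receptor subunits ITGA1, ITGA10 and ITGA11 and the laminin receptor subunit ITGA7 lay under 0.4 RPKM in each library. ITGA8, of an RGD receptor, had 0 counts throughout and ITGA9, of a tenascin receptor, had 3 counts in all.

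Of the beta subunits, ITGB1, ITGB5 and ITGB2 were present. ITGB5, a vitronectin receptor subunit that pairs with ITGAV, stood at 20.7 ± 3.66 RPKM with TIM-1 and 19.6 ± 3.58 RPKM with the empty vector (SD, n = 3 each). ITGB3, another partner of ITGAV, stood at 0.875 ± 0.206 RPKM with TIM-1 and 0.632 ± 0.144 RPKM with the empty vector, just under the limit. A readthrough gene on the same strand overlaps 51.6% of its exonic bases, so its level is uncertain. ITGB6, which pairs with ITGAV in epithelia, had 5 counts over the 6 libraries and ITGB8, a further ITGAV partner, had 0. A gene on the same strand overlaps 20.6% of the exonic bases of ITGB6. ITGB4, the partner of ITGA6 in hemidesmosomes, had 2, 2 and 4 counts in the TIM-1 libraries and 2, 4 and 4 in the empty-vector libraries. ITGA6 thus had ITGB1 as its single partner present.

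Transcripts of both subunits were present for 7 of 22 known dimers among the listed genes. ITGB1 was the beta subunit of 6, with ITGA2, ITGA3, ITGA4, ITGA5, ITGA6 and ITGAV, and the other was ITGAV with ITGB5. At a limit of 2 RPKM 5 were left, without the ITGA2 and ITGA4 dimers, and at 0.5 RPKM ITGAV with ITGB3 made 8. Among these, the ITGA3 and ITGA6 dimers with ITGB1 are laminin receptors, and the ITGA2 dimer with ITGB1 is the collagen receptor.

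The integrins of leukocytes were incomplete. ITGB2, the beta subunit of leukocyte integrins, was present at 1.94 ± 0.342 RPKM with TIM-1 and 1.80 ± 0.577 RPKM with the empty vector (SD, n = 3 each). An antisense gene shares 4.46% of its exonic bases. Of its alpha partners ITGAL had 0 counts, ITGAX 24 counts over the 6 libraries, and ITGAM a mean of 0.417 RPKM, so no dimer of ITGB2 was complete. ITGAE, the alpha subunit that binds E-cadherin, was present at 2.74 ± 0.082 RPKM with TIM-1 and 3.10 ± 0.241 RPKM with the empty vector, while ITGB7, its beta subunit, had 10 counts in all. ITGAE shares 6.41% of its exonic bases with the antisense gene HASPIN, and ITGB7 shares 42.1% with the antisense gene ZNF740. Without a known strand setting the reads of such overlapping genes cannot be told apart, so the ITGB7 count is uncertain.

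The groups were compared gene by gene. Of the 34 laminin and integrin genes 21 passed the low-count filter, 7 laminin and 14 integrin genes, and the other 13 had too few counts. In the unpaired edgeR test 0 of the 21 were higher and 0 lower, against 0.0138% and 0% of all 14479 tested genes. An unadjusted p under 0.05 was reached by 3 of the 21, compared with 5.49% among all tested genes. DESeq2 without pairing called 1 of the 21, LAMB3, as higher and 0 as lower, against 29 and 1 of all 14479 tested genes. With the replicate number as a block 5 of the 21 (23.8%) were higher, against 3.22% of all tested genes, and 0 were lower, against 1.79% (5.01% in either direction). These were LAMB3, ITGA6, LAMB1, ITGB1 and ITGA3, and apart from LAMB3 each differed by at most 0.27 on the log2 scale. The median blocked log2 fold change was 0.16 over the 21 and 0.00 over all tested genes.

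**Figure D3:**
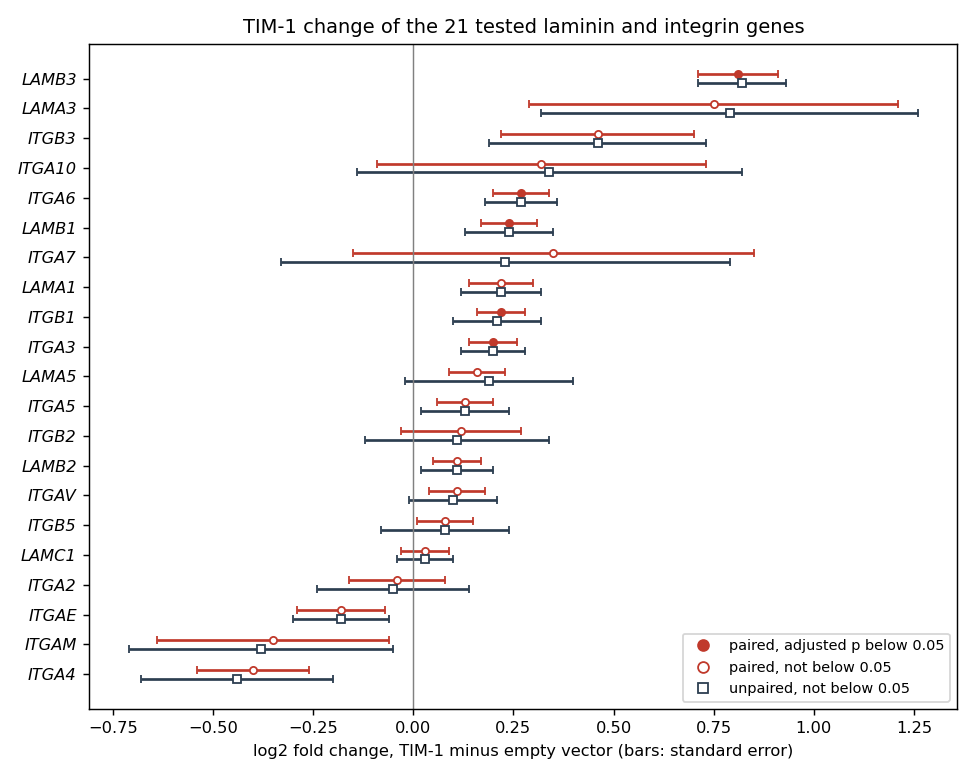
Log2 fold change, TIM-1 minus empty vector, of the 21 tested genes with standard errors, for the paired test (red circles, filled where the adjusted p is below 0.05) and the unpaired test (dark squares). LAMB3 stands apart at 0.81 in the paired test, and the other 4 filled genes lie between 0.20 and 0.27.

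ITGA6 rose with TIM-1 in the paired test and its groups did not overlap. It stood at 100.5, 106 and 101 CPM in TIM-1 replicates 1, 2 and 3, against 91.96, 83.7 and 79.3 CPM in empty-vector replicates 1, 2 and 3. ITGA6 had a blocked log2 fold change of 0.27 (SE 0.07; adjusted p = 0.0111, edgeR), against an unpaired adjusted p of 0.730. Leaving out the replicate 2 or the replicate 3 pair lost the call (edgeR adjusted p = 0.324 and 0.0603), as did DESeq2 with the block (0.1). ITGA6 did not differ with replicate 1 beyond the test (0.07, edgeR adjusted p = 0.573).

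ITGA3 and ITGB1, which together form a laminin receptor, were both called higher in the paired test. Their blocked changes were similar, but their changes within pairs were not. In pairs 1, 2 and 3 the log2 ratio was 0.28, 0.24 and 0.07 for ITGA3 and 0.05, 0.24 and 0.35 for ITGB1. ITGA3 stood at 741, 667 and 660.2 CPM with TIM-1, against 612, 564 and 629 CPM with the empty vector, with no overlap. With the block this was a log2 fold change of 0.20 (SE 0.06; adjusted p = 0.0398, edgeR), against an unpaired adjusted p of 0.880. ITGB1 stood at 1927, 1815 and 1722 CPM with TIM-1, against 1856, 1532 and 1352 CPM with the empty vector, with empty-vector replicate 1 above TIM-1 replicates 2 and 3. ITGB1 was also higher in replicate 1, by 0.25 (edgeR adjusted p = 0.00932). With the block ITGB1 had a log2 fold change of 0.22 (SE 0.06; adjusted p = 0.0231, edgeR), against an unpaired adjusted p of 0.893. ITGA3 was no longer called when the replicate 1 or 2 pair was left out (edgeR adjusted p = 0.259 and 0.459), nor ITGB1 when the replicate 2 or 3 pair was left out (0.324 and 0.142). Neither was called by DESeq2 with the block, at adjusted p = 0.159 and 0.1.

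**Figure D4:**
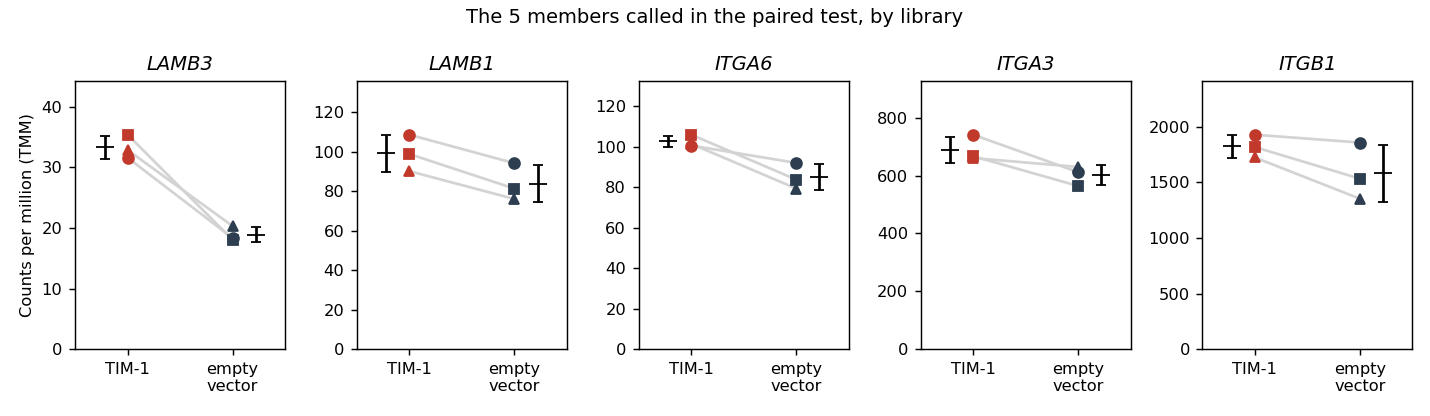
CPM in each library of the 5 genes called in the paired test, TIM-1 on the left and empty vector on the right, with grey lines joining same-numbered libraries (circle 1, square 2, triangle 3) and black bars giving the mean ± SD of 3. LAMB3 shows a gap between the groups, 31.6 to 35.4 against 18.1 to 20.3 CPM, while LAMB1 and ITGB1 overlap.

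The remaining 8 alpha and 3 beta subunits tested were not called in either fit. ITGA4 stood at 12.4, 9.53 and 9.61 CPM with TIM-1, against 19.04, 13.9 and 9.59 CPM with the empty vector. The blocked log2 fold change of -0.40 did not pass (SE 0.14; adjusted p = 0.0707, edgeR), and it passed without the replicate 3 pair, at -0.59 (edgeR adjusted p = 0.00866). ITGA4 was higher in replicate 1, by 0.55 (edgeR adjusted p = 0.00872). ITGAE stood at 17.7, 18.7 and 18.3 CPM with TIM-1, against 21.3, 21.8 and 18.8 CPM with the empty vector. It was the single tested member with every TIM-1 library below every empty-vector library (log2 fold change -0.18, edgeR adjusted p = 0.409 with the block).

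ITGA5, ITGAV and ITGB5, the RGD receptor subunits, had blocked log2 fold changes of 0.13, 0.11 and 0.08 (SE 0.07 each; edgeR adjusted p = 0.296, 0.442 and 0.568). ITGA5 and ITGB5 were higher in replicate 1, by 0.23 and 0.41 (edgeR adjusted p = 0.0193 and 0.000228). ITGB3, at low counts, had 0.46 (SE 0.24, edgeR adjusted p = 0.293). ITGA2 had -0.04 and ITGB2 0.12. The low genes ITGA7, ITGA10 and ITGAM had 0.35, 0.32 and -0.35, with standard errors of 0.50, 0.41 and 0.29. In all, 5 of the 21 (23.8%) had groups that did not overlap, compared with 11.7% of all tested genes. Of these, 4 were higher with TIM-1 (LAMB3, LAMA1, ITGA3 and ITGA6), against 6.6%, and 1 lower (ITGAE), against 5.06%.

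Several of these genes also differed between replicate 1 and the other replicates. In that comparison 6 of the 21 (28.6%) were higher in replicate 1 and 0 lower (edgeR quasi-likelihood test), against 11.6% and 12% of all tested genes (23.6% in either direction). These were LAMA5 (0.56), ITGA4 (0.55), ITGB5 (0.41), ITGB1 (0.25), LAMB1 (0.23) and ITGA5 (0.23). LAMB1 and ITGB1 were called in both comparisons, whereas LAMB3, ITGA6 and ITGA3 differed by -0.09, 0.07 and 0.10 in replicate 1 without a call. With replicate 1 against replicates 2 and 3 as the block, LAMB3 and ITGA6 were called as higher with TIM-1 (edgeR adjusted p = 1.29e-05 and 0.0289), against 2.4% of all tested genes, and 0 as lower, against 1.12% (3.52% in either direction). LAMB1, ITGB1 and ITGA3 then had adjusted p = 0.0509, 0.0644 and 0.0737. The part of the replicate 1 difference in these results was not tested further.

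**Figure D5:**
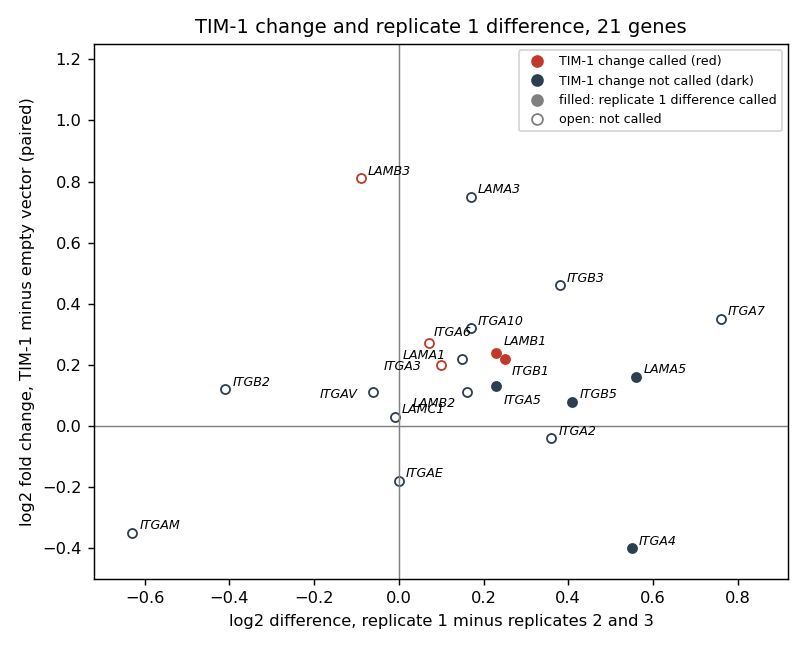
Paired TIM-1 log2 fold change of the 21 tested genes (vertical axis) against their log2 difference between replicate 1 and replicates 2 and 3 (horizontal axis). Red marks genes called for TIM-1 and filled symbols genes called for replicate 1; LAMB3 sits high at a replicate 1 difference near 0, LAMA5 and ITGA4 lie to the right without a TIM-1 call, and LAMB1 and ITGB1 are called for both.

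Genes that work with laminins and integrins were counted from lists. Of 105 genes outside the 34, 79 were tested. In the unpaired edgeR test 0 were higher and 0 lower, against 0.0138% and 0% of all tested genes. DESeq2 without pairing called 1 higher and 0 lower, against 29 and 1 of all 14479 tested genes. With the block 8 (10.1%) were higher, against 3.22% of all tested genes, and 3 (3.8%) lower, against 1.79%, with a median log2 fold change of 0.05. DESeq2 with the same block called 4 higher and 0 lower, against 151 and 76 of all 14479 tested genes.

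Of 10 tested basement membrane partners of laminin, the paired test called 4 higher and 0 lower, against 3.22% and 1.79% of all tested genes. The median log2 fold change of the 10 was 0.17 (0.00 over all tested genes). COL4A5, a collagen IV chain, stood at 11.7, 8.97 and 10.7 CPM with TIM-1, against 8.08, 4.08 and 3.8 CPM with the empty vector (log2 fold change 1.02, edgeR adjusted p = 5.38e-05). Empty-vector replicate 1 was the high library of its group, and COL4A5 was higher in replicate 1 by 0.60 (edgeR adjusted p = 0.0161). SPARC, a collagen-binding matrix protein, rose by 0.34 (edgeR adjusted p = 0.000431), COL4A2, a further collagen IV chain, by 0.30 (0.00571) and the heparan sulfate proteoglycan gene HSPG2, named after its value was seen, by 0.21 (0.0406). COL4A2 and HSPG2 were also higher in replicate 1, by 0.33 and 0.24, and SPARC was not called there (0.10, edgeR adjusted p = 0.331). With the block of replicate 1, HSPG2 lost its call (edgeR adjusted p = 0.0852).

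Other integrin ligands gave 3 higher and 0 lower of 10 tested in the paired test, against 3.22% and 1.79% of all tested genes. L1CAM, an adhesion molecule that binds RGD integrins, stood at 146, 144 and 128 CPM with TIM-1, against 108, 105 and 100.3 CPM with the empty vector (log2 fold change 0.41, edgeR adjusted p = 1.97e-05). TNC, the matrix protein tenascin-C, stood at 6.83, 3.22 and 3.94 CPM with TIM-1, against 1.38, 2.23 and 1.87 CPM with the empty vector (log2 fold change 1.30, edgeR adjusted p = 0.00187). For both the groups did not overlap. COL1A1, a collagen I chain, rose by 0.90 (edgeR adjusted p = 0.000265), and was also higher in replicate 1 by 0.83 (edgeR adjusted p = 0.000475).

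Of 31 tested integrin activators and adaptors 0 were higher and 2 lower with the block, against 3.22% and 1.79% of all tested genes. These were FERMT1, which encodes the integrin activator kindlin-1 (log2 fold change -0.28, edgeR adjusted p = 0.0102), and BCAR1, an adaptor of focal adhesions (-0.31, edgeR adjusted p = 0.0119). Both were also lower in replicate 1, by 0.36 and 0.43 on the log2 scale, and BCAR1 lost its call with the block of replicate 1 (edgeR adjusted p = 0.07). Of 10 genes of integrin inactivation and traffic, MYO10, a myosin that carries integrins along filopodia, was the 1 called (0.28, edgeR adjusted p = 0.0197). Of all tested genes 5.01% were called in either direction. Of 9 integrin-associated membrane proteins, SLC3A2, the heavy chain of the CD98 amino acid transporter, was the 1 called, against the same 5.01%. Its log2 fold change was -0.21 (edgeR adjusted p = 0.0290), and it was lower in replicate 1 by 0.53 (edgeR adjusted p = 2.50e-06). SLC3A2 lost its call with the block of replicate 1 (edgeR adjusted p = 0.0577). Of the 79 pathway genes 0 were called lower by DESeq2 with the replicate block, or when the replicate 2 or 3 pair was left out of the paired edgeR fit. Of all tested genes 76, 57 and 134 were called lower in those fits.

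Of 7 tested non-integrin laminin receptors 0 were called in either edgeR test, against 5.01% of all tested genes with the block and 0.0138% without. RPSA, the ribosomal protein also known as the laminin receptor, and CD44, a hyaluronan receptor, were the most abundant, with blocked log2 fold changes of 0.02 and 0.07. Of 5 tested hemidesmosome genes ITGA6 alone was called in the paired test, against 5.01% of all tested genes in either direction. Of laminin and integrin chains outside the 34 genes, LAMB4 had 0 counts, and ITGA2B and ITGAD had 14 and 15 counts over the 6 libraries.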

How the data were processed

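The authors deposited raw read counts per Ensembl gene, not normalized, with 1 column per library. The submitters' processing notes name the build hg38 and the tools HISAT2 2.0.5, featureCounts 1.5.0-p3 and DESeq2 1.16.1. Annotation release, strand setting and the rule for shared reads were not given in the sources used here, so counts of overlapping genes are uncertain. Groups and replicate numbers were taken from the labels. Symbols were found for 60463 of 60605 identifiers, and positions and exon lengths came from GENCODE 29, on the same assembly as hg38.

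In R 4.3.3, edgeR 4.0.16 tested the counts by quasi-likelihood (robust, TMM factors) after filterByExpr with a minimum count of 10, which left 14479 genes. P-values were two-sided and adjusted over all tested genes by the Benjamini-Hochberg method, with a threshold of 0.05. Standard errors are the log2 fold change over the root of F. CPM use TMM-scaled library sizes, and RPKM divide them by the union of exons. A count of 0 was taken to allow 3 counts. DESeq2 1.42.0 was an alternative, as were other size factors, no low-count filter and leaving libraries out. The fits were also run on simulated counts. These held no replicate effect, so they cannot weigh the paired fit against the unpaired one.

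The replicate number was also fitted as a block. After removal of group means, libraries sharing a number correlated at 0.53, 0.23 and 0.26 for replicates 1, 2 and 3, above the limit of 0.1 for pairing. TIM-1 replicate 3 also correlated at 0.26 with empty-vector replicate 2, so the data tell replicate 1 apart and replicates 2 and 3 hardly. "Paired" and "blocked" name this fit, with 2 residual degrees of freedom against 4. Libraries of 1 group differed by more than sampling noise (chi-square over degrees of freedom 4.18 to 27.3). Named genes were the 34 members, HAVCR1, and in each list up to 3 called genes with the smallest p or, where none was called, the 2 of highest CPM. The members, lists and complexes were chosen with earlier results of these data known. Some items are not reported here.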

Additional observations from a re-analysis of the deposited data

How the results depend on the processing

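LAMB3 was higher with TIM-1 by 0.74 to 0.88 on the log2 scale in every alternative run, and passed the threshold in all 8 with a block, with DESeq2 or with no low-count filter, but in none of the unpaired fits with a library left out (edgeR adjusted p from 0.0687 to 0.866). Genes called higher and lower were 2 and 0 without pairing, 466 and 259 with the replicate block, 348 and 162 with the block of replicate 1, 29 and 1 with DESeq2, 151 and 76 with DESeq2 and the replicate block, and 60 and 12 with no low-count filter. Members called higher in those alternatives were 5, 2, 1, 1 and 1, and pathway genes 8, 7, 1, 4 and 4, with 3 pathway genes lower under the replicate block and 1 under the block of replicate 1. Leaving out a library gave 1 to 8 genes higher, 0 or 1 lower, 0 members and 0 or 1 pathway genes, the highest without empty-vector replicate 1. Leaving out a pair from the blocked fit gave 152 to 440 genes higher and 57 to 398 lower (339 and 134 without the replicate 3 pair), 1 to 4 members higher and 0 or 1 lower (ITGA4), and 4 to 8 pathway genes higher and 0 to 6 lower. In replicate 1, 2 to 8 members were higher and 0 or 1 lower with a library left out, the lowest without empty-vector replicate 1, and 1 was lower with no filter. For these counts the cause was not tested.

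Some uncalled members changed sign when a library was left out. Their unpaired log2 fold changes ran from -0.09 to 0.33 for LAMA5, -0.23 to 0.09 for ITGA2, -0.17 to 1.06 for ITGA7, -0.22 to 0.79 for ITGA10, -0.07 to 0.39 for ITGB2 and -0.08 to 0.22 for ITGB5. With the block and a pair left out they ran from -0.24 to 0.13 for ITGA2, -0.04 to 1.15 for ITGA7, -0.38 to 0.95 for ITGA10, -0.02 to 0.20 for ITGAV and -0.09 to 0.47 for ITGB2. The other size factors changed no call. The fold changes of the low-count genes LAMA3, ITGA7 and ITGA10 had standard errors of 0.41 to 0.50 with the block.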
